A study of Mus musculus with 32 samples.

Results

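The monocyte graft was compared with its colonic progeny 8 days after transfer. These libraries are 7 of the 32 of the series, 3 of the graft and 4 of colon day 8, and were chosen by their titles. The graft was described in the methods as BM monocytes of Cx3cr1 GFP/+ donors on a C57BL/6 background, sorted as CD117- CD11b+ CD115+ Ly6C+ GFPint cells. Its sample labels differ from this: they give blood as the organ, CD45+CD11b+CD115+Ly6C+/- as the sort, an Itgax-DTR/GFP transgene as the genotype and no diphtheria toxin (DTx). The recipients were [CD11c-DTR > WT] BM chimeras, irradiated mice that received marrow carrying the DTx receptor under the Itgax (CD11c) promoter. Their label gives the same Itgax-DTR/GFP transgene, and all 7 libraries carry the strain C57BL/6J. They were injected with DTx at 18 ng per gram of body weight before the transfer and at 9 ng per gram every other day after it. Depletion by this transgene reaches the marrow-derived cells that use the Itgax promoter, while radioresistant and CD11c-negative host cells stay in the tissue. Colonic cells were sorted as DAPI-CD45+CD11b+CD64+Ly6C-MHCII+, and the methods add the donor's CD45.1 and GFP, which the labels leave out. No ages and no animal numbers stand in the labels, so replicates are separate libraries. The p-values rest on the spread between libraries, estimated from all 26 of the CD11c-DTR transfer experiment and not from these 7 alone.

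Ly6C+ monocytes leave the marrow, enter the lamina propria through CCR2 and, in a healthy gut, lose Ly6C, gain MHC class II and become CX3CR1+ macrophages. Such macrophages take up apoptotic cells and bacteria, make C1q, present antigen on MHC class II, and respond to IL-10 and TGF-beta, which restrain their inflammatory output. The 3 markers of the comparison were C1qa, H2-Ab1 and Il1b. C1qa encodes a chain of the first complement component (chr4:136451831-136454759, minus strand), H2-Ab1 the beta chain of the class II molecule I-A (chr17:34400172-34406363, plus strand), and Il1b the inflammatory cytokine IL-1beta (chr2:129190314-129196875, minus strand), at the mm9 positions given by the files.

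The bases upstream of the 3 C1q chains and of 3 class II genes are shown because these sets carried the clearest gains that C1qa and H2-Ab1 stand for. Each run holds the 200 bases before the gene's outermost annotated start in mm9 on its own strand, 5′ to 3′. Capitals mark 3 searched motifs on either strand: the PU-box core GAGGAA bound by ETS factors such as PU.1, the Y-box CCAAT bound by NF-Y, and CCTAGNNAC, the core of the X-box bound by the RFX complex.
C1qa (chr4:136454760-136454959, minus strand): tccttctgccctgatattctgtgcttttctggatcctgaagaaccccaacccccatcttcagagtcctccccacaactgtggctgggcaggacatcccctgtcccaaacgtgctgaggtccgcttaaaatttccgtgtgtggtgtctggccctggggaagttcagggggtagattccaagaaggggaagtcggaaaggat
C1qb (chr4:136442103-136442302, minus strand): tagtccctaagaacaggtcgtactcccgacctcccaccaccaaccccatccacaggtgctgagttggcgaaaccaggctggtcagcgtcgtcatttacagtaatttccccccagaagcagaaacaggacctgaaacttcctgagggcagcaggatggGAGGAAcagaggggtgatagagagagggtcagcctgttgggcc
C1qc (chr4:136448981-136449180, minus strand): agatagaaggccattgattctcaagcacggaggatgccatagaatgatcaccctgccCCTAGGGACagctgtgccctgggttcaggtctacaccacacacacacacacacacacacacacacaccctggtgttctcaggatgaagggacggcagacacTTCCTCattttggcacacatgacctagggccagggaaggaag
H2-Aa (chr17:34424773-34424972, minus strand): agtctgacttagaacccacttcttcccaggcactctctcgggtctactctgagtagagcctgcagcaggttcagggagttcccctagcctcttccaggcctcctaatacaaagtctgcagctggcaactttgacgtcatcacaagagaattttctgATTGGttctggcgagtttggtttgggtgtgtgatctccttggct
H2-Ab1 (chr17:34399954-34400153, plus strand): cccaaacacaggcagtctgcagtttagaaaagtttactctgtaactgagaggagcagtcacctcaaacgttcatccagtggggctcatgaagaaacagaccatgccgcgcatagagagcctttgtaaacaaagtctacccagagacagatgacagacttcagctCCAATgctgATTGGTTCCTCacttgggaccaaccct
H2-Eb1 (chr17:34442612-34442811, plus strand): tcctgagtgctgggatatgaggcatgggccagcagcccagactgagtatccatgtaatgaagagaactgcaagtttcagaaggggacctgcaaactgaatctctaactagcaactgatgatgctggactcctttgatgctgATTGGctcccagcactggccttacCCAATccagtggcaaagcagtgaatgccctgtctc
The Y-box stood in all 3 class II windows, once in H2-Aa and 2 times each in H2-Ab1 and H2-Eb1, and in none of the C1q windows. It occurs in 30.9% of the 24339 windows of that length taken before all genes. The PU-box core stood before C1qb, C1qc and H2-Ab1 and occurs in 18.9% of all windows. In H2-Ab1 it directly follows a Y-box, so both are capitals in 1 run. The X-box core letters, found in 2.79% of windows, occurred in this set only before C1qc. The window before Il1b (chr2:129196876-129197075) held none of the 3 motifs. A match of letters is a description and not a binding site.

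Levels are given as normalized reads, which are reads on the exons of a gene per 10000000 mapped reads. Between 2447862 and 3639328 reads fell on genes in the graft libraries and between 889451 and 5228664 in those of colon day 8. Replicate 1 of colon day 8 was the shallowest, and 1 of its reads equals 6.71 normalized reads, against 1.17 to 3.38 in the other 3. The study left this library out of its analysis. Across genes its log2(normalized reads + 50) correlated at 0.79 to 0.85 with replicates 2 to 4, which correlated at 0.958 to 0.974 among themselves, and genes are not independent replicates. No pair of libraries agreed within sampling noise. Because replicate 1 stood apart, numbers of genes called in the main fit are also given without it where that changed them.

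The label of the colonic libraries was checked against marker genes. C1qa, H2-Ab1 and Il1b were higher in all 4 than in any graft library, and Itgax, the gene of CD11c, rose too. Genes of the sort itself did not all follow. Ptprc, which encodes CD45, was at 5204, 6089.8 and 3826 normalized reads in the graft and at 2221, 409, 224 and 158 in colon day 8 replicates 1 to 4, a log2 fold change of -2.21 ± 0.77 (SE; adjusted p = 0.0171). It was -4.03 (adjusted p = 2.22e-05) without replicate 1. Without colon day 8 replicate 2 or replicate 3 its adjusted p was 0.0537 and 0.0521. Itgam, the gene of CD11b, fell from 2886, 4747 and 3989 to 664, 355, 144 and 139 (log2 fold change -3.17 ± 0.68, adjusted p = 0.000358, without replicate 1 -3.97, adjusted p = 3.83e-05). Fcgr1, which encodes CD64, was at 679, 866 and 695 in the graft and at 906, 229.6, 154 and 50.3 in colon day 8 and overlapped. The log2 fold change was -0.72 ± 0.73 (SE; adjusted p = 0.414), and -2.18 (adjusted p = 0.00564) without replicate 1.

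Over 20 pan-leukocyte genes, which encode CD45, leukocyte actin regulators and signalling adaptors, the summed level was 148580 to 162253 normalized reads in the graft and 38884, 10583, 5498 and 3508 in colon day 8 replicates 1 to 4. These are 24.8, 6.75, 3.51 and 2.24% of the graft mean, and 19 of the 20 genes were lower in the fit described below (all 20 without replicate 1). In bulk RNA, fewer cells of a type and less RNA per cell cannot be told apart. Genes of other cells moved the opposite way. The 17 intestinal epithelium genes summed to 42.6 to 61.8 in the graft and 88175, 185749, 194261 and 176344 in colon day 8, the 9 goblet cell genes to 2.42 to 19.6 and 11836, 67553, 53635 and 36507, and the 6 endothelium genes to 0 to 3.88 and 268, 922, 1644 and 701. The 7 fibroblast genes, all at 0 in the 3 graft libraries, summed to 87.2, 3036, 1527 and 1025. Replicate 1 was thus the highest of the 4 in pan-leukocyte genes and the lowest in each of these other lists. The part of other cells' RNA in the results below was not tested, and their levels are given beside the groups they move with.

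**Figure D1:**
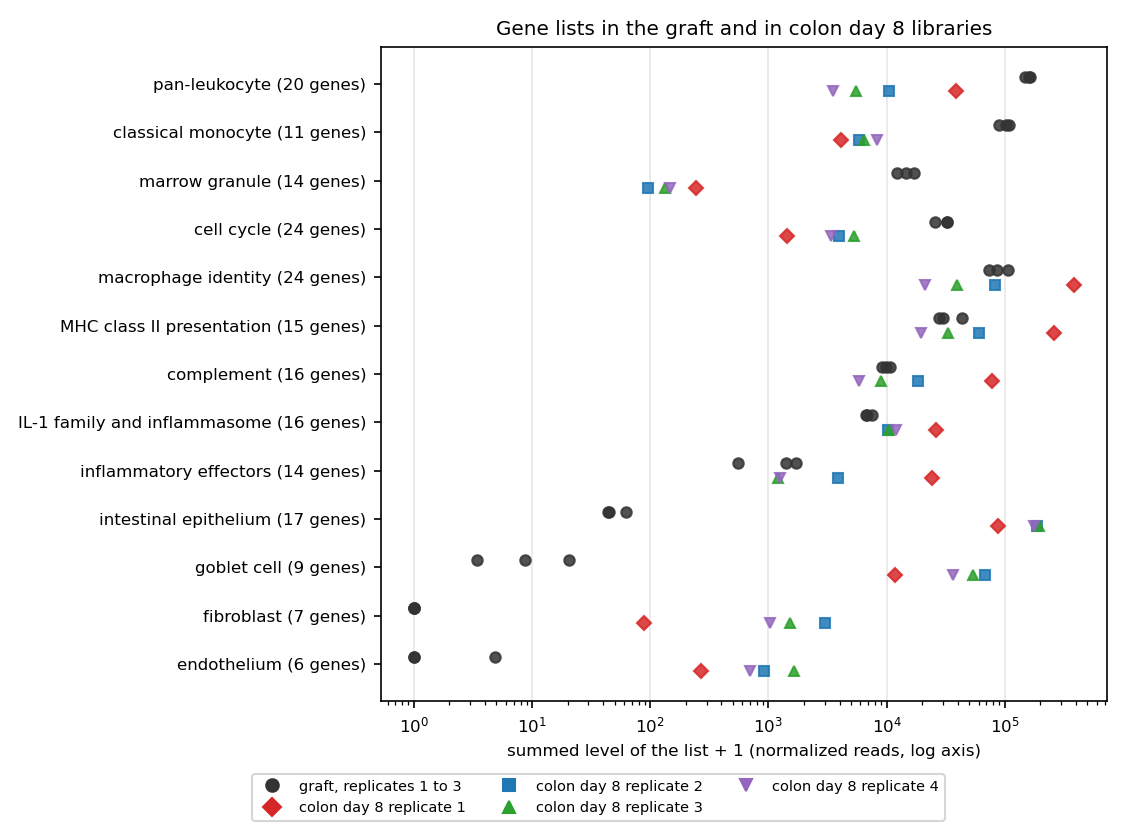
Summed level of 13 gene lists per library, in normalized reads plus 1 on a log axis, with graft libraries as black circles and the 4 colon day 8 libraries as coloured symbols. Pan-leukocyte sums lie at 148580 or more in the graft and at 38884 or less in colon day 8, epithelial sums at 62 or less and at 88175 or more, and colon day 8 replicate 1 lies apart from the other 3 in both.

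Of 11869 genes tested, 4255 (35.8%) were higher in colon day 8 than in the graft and 2529 (21.3%) were lower (edgeR quasi-likelihood test, Benjamini-Hochberg adjusted p under 0.05). The median log2 fold change over all genes was 0.26, and 0.23 with the genes at 0 in a whole group set to their bound. Scaled by library totals, 3463 were higher and 3464 lower with a median of -0.09, so the split between directions depended on the scaling. Without replicate 1, 4168 (35.2%) of 11842 genes were higher and 2834 (23.9%) lower with a median of 0.22. The higher calls shared 3996 genes and the lower 2386, and no called gene changed sign. In 25.0% of tested genes all 4 colonic libraries lay above all 3 of the graft, and in 32.9% all lay below. For a single gene, an exact permutation test of 3 against 4 libraries cannot give a p below 0.0571, so calls rest on the fit across genes. Fitted log2 fold changes are given with their SE and adjusted p, and with the value without replicate 1 where leaving it out moved the fold by over 1.5 times. The lists described next were chosen with earlier results known, and their counts are read beside these shares.

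**Figure D2:**
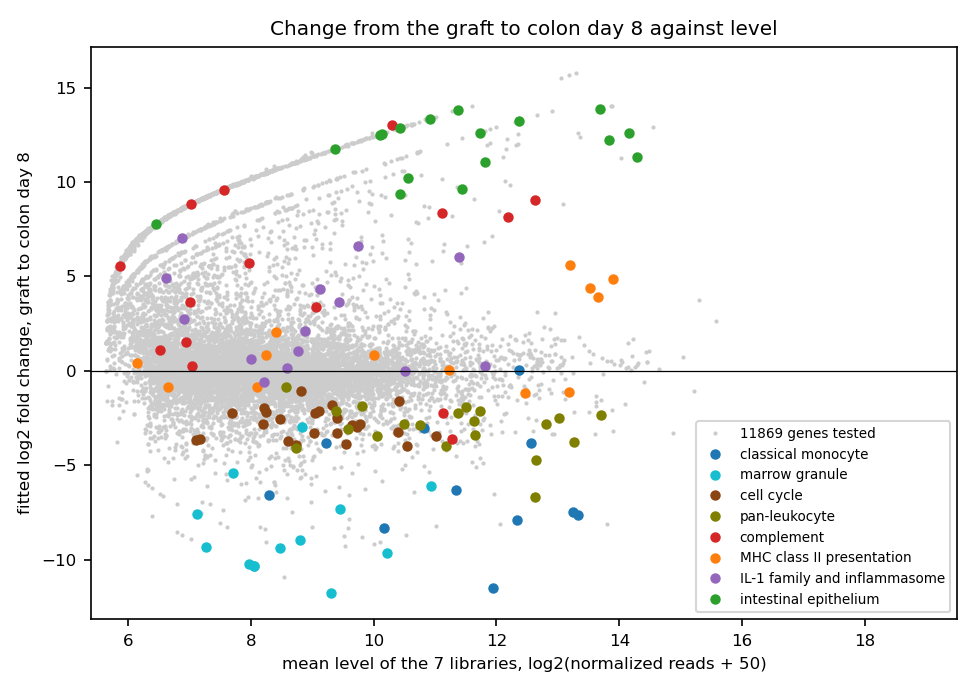
Fitted log2 fold change from the graft to colon day 8 (y) against the mean level of the 7 libraries on log2(normalized reads + 50) (x) for 11869 genes in grey and 8 gene lists in colour. Classical monocyte, marrow granule and cell cycle genes lie below 0 except Plac8, epithelial genes above 7, C1q genes above 8 and H2-Ab1 at 4.85. The arcs at the upper left are genes with few or no reads in the graft, whose fitted value is no bound.

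Genes of the classical monocyte fell. Of 11 list genes, 10 were lower and none higher, with a median log2 fold change of -6.55, against 21.3% of all genes lower. Ly6c2, which encodes the Ly6C antigen of the sort, was at 26717, 20738 and 23435 normalized reads in the graft. In colon day 8 replicates 1 to 4 it was at 53.7, 97.9, 117 and 104, far below every graft library (log2 fold change -7.63 ± 0.97, adjusted p = 4.62e-07). By the methods the graft was sorted as Ly6C+, and the colonic cells were sorted as Ly6C-. The gates thus selected for a fall of Ly6c2, which is no independent test. Ccr2, the receptor that guides monocytes out of marrow, went from 6535, 6518 and 4611 to 73.8, 43.9, 60 and 56.2 (-6.32 ± 0.77, adjusted p = 2.47e-07). F13a1, coagulation factor XIII A of monocytes, went from 13507, 13958 and 8011 to 20.1, 84.4, 31.3 and 25.7 (-7.88 ± 0.67, adjusted p = 1.14e-09), and Fn1, fibronectin, from 19604, 29048 and 18904 to 13.4, 176, 128 and 85.4 (-7.47 ± 0.87, adjusted p = 1.22e-07). In these 4 genes all colonic libraries lay far below the graft, and replicate 1 was the lowest of them in Ly6c2, F13a1 and Fn1 and the highest in Ccr2. Vcan, Itgal, Ly6c1, Chil3 and Hp were also lower. Ly6c1 and Ly6c2 are close paralogs, so reads could be split between them. Hp, haptoglobin, set replicate 1 apart, at 2429, 67.5, 7.83 and 11.7 after 11719, 14474 and 13317 in the graft. Its log2 fold change was -3.80 ± 1.21 (SE; adjusted p = 0.0101) with replicate 1 and -8.75 (adjusted p = 1.33e-07) without it. Plac8, also abundant in monocytes, was at 6046, 5377 and 5899 in the graft and 1074, 4937, 5725 and 7548 in colon day 8 and was not called (adjusted p = 0.962). In replicates 2 to 4 Plac8 made up most of the list's sum, and it was lowest in replicate 1, as the epithelial genes were.

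Granule genes of young marrow monocytes and granulocytes were lower in 13 of 13 tested list genes, with a median of -9.30 and of -6.07 when genes at 0 in all colonic libraries were set to their bound. Leaving out any graft library left 4 of them past the filter on low levels, and all 4 were lower. The others, Prtn3 among them, passed it only with all 3 graft libraries. Their direction was fixed by the filter and is no test. Mmp8, neutrophil collagenase, was at 1527, 1866 and 678 normalized reads in the graft and at 0 in all 4 colonic libraries, at least 67.4-fold lower against a floor of 3 counts per library. Camp, the cathelicidin peptide, was at 522, 546 and 446 and at 0, at least 25.1-fold lower. Both had no colonic read at all. Mpo, myeloperoxidase of azurophil granules, was at 702, 188 and 615 in the graft and at 0 in colon day 8, at least 24.9-fold lower. Elane, neutrophil elastase, was at 615, 234 and 552 in the graft and at 0 in colon day 8, at least 23.2-fold lower. DESeq2 did not call Mpo (adjusted p = 0.137) or Elane (adjusted p = 0.142), the only list genes it left out. Prtn3, proteinase 3, fell from 2799, 1645 and 3489.7 to 6.71, 0, 2.61 and 2.34 (log2 fold change -9.63 ± 0.69, adjusted p = 1.02e-10). S100a8, a subunit of calprotectin, went from 1260.3, 938 and 2318 to 0, 3.38, 10.4 and 9.36 (-7.33 ± 0.98, adjusted p = 1.03e-06). Its partner S100a9 was at 4039, 3707 and 5340.0 in the graft and at 73.8, 43.9, 49.6 and 39.8 in colon day 8. Of these 7 genes S100a9 kept the most reads on day 8. The list's sum was 12158 to 17209 in the graft and 242, 94.6, 133 and 146 in colon day 8, highest in replicate 1, as S100a9 and Prtn3 were.

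The 10 largest falls of the whole comparison were Mmp8, Chil3, Serpinb10, Camp, Mpo, Elane, Prtn3, Ctsg, Fcnb and Ifitm6, of which 7 are granule list genes. Chil3, the chitinase-like lectin Ym1, which has a close paralog, was at 9777, 9905 and 7696 in the graft and at 0, 0, 0 and 4.68 in colon day 8. Serpinb10, a protease inhibitor of marrow cells, was at 904, 806 and 542 and at 0 throughout, at least 37.3-fold lower. Ctsg, cathepsin G, was at 792, 403 and 947 in the graft and at 0, 0, 0 and 1.17 in colon day 8. With 1 colonic read in all, its ratio of graft to colon day 8 was 1201 (95% Poisson interval 216 to 47446, counting error only). Ifitm6, an interferon-induced membrane protein of myeloid cells, was at 1836, 1244 and 1751 in the graft and at 0, 3.38, 2.61 and 1.17 in colon day 8. None of these 10 genes reached 10 normalized reads in a colonic library. Those that passed the filter on low levels only with all graft libraries, such as Prtn3, had their direction fixed by it.

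Cell cycle genes were lower in 24 of 24. The summed level went from 25654 to 32671 in the graft to 1443, 3971, 5321 and 3377 in colon day 8 replicates 1 to 4, with a median log2 fold change of -2.85. Mki67, which encodes the proliferation antigen Ki-67, was at 2841, 2244 and 3083 in the graft and at 114, 216, 289.7 and 296 in colon day 8 (-3.23 ± 0.37, adjusted p = 1.03e-07). Top2a, topoisomerase II of S and G2 phase, was at 4662, 3319 and 4846 in the graft and at 101, 314, 535 and 311 in colon day 8 (-3.45 ± 0.41, adjusted p = 1.43e-07). Replicate 1 was below the median of the other 3 in 23 of the 24 genes, and Ccna2, Rrm2, Bub1, Plk1, E2f7 and E2f8 were at 0 there. A count of 0 in replicate 1 allows up to 20.1 normalized reads.

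The 3 chains of C1q rose in colon day 8. C1qa was at 39.3, 36.8 and 14.5 normalized reads in the graft and at 32738, 6213, 3027 and 1677 in colon day 8 replicates 1 to 4. The groups did not overlap, and replicate 1 was over 5 times the next library. The log2 fold change was 9.06 ± 1.25 (SE; adjusted p = 1.46e-06), 7.13 without replicate 1, and 7.13 to 9.42 over the 15 alternatives. C1qb went from 39.3, 71.7 and 12.11 to 23116, 5521, 2369.5 and 1280.4 (8.15 ± 1.17, adjusted p = 2.57e-06, without replicate 1 6.42, adjusted p = 1.03e-06). C1qc went from 11.2, 15.5 and 21.8 to 9689, 3120.2, 1519 and 829.8 (8.34 ± 1.07, adjusted p = 5.41e-07, without replicate 1 7.00, adjusted p = 2.18e-07). The order of the 4 colonic libraries was the same in each chain.

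Of 15 complement genes tested, 11 were higher and 2 lower, with and without replicate 1, and the median log2 fold change was 5.53 (3.67 with bounds). C1ra and C1s1 encode the proteases that C1q activates, and each has a close paralog that may share its reads. C1ra rose from 44.9, 48.4 and 33.9 to 53.7, 122, 80.9 and 129 with no overlap. C1s1 was at 0 in the graft and at 20.1, 239.8, 141 and 157 in colon day 8, at least 16.6-fold higher. Serping1, which inhibits these proteases, was at 0 in the graft and at 80.5, 496, 248 and 153, at least 29-fold higher. In C1ra, C1s1 and Serping1 replicate 1 was the lowest of the 4, the reverse of C1q. In C1s1 and Serping1 replicate 2 was the highest, as in the fibroblast sum of 87.2, 3036, 1527 and 1025. Cfb, factor B of the alternative pathway, rose from 78.6, 103 and 99.3 to 550.2, 932, 804 and 826 (3.38 ± 0.55, adjusted p = 1.42e-05). C3, the central component, fell from 4303, 5107 and 6294 to 382, 398, 271 and 291 (-3.60 ± 0.45, adjusted p = 3.67e-07). Cfp, properdin, fell from 4334, 4348 and 4064 to 1604, 540.3, 284 and 195 (-2.22 ± 0.76, adjusted p = 0.016, without replicate 1 -3.42, adjusted p = 0.000512), with an adjusted p of 0.0507 without colon day 8 replicate 3 and of 0.0506 without replicate 4. In normalized reads complement genes therefore went both ways, with C1q up and C3 and properdin down. Per 1000 pan-leukocyte reads, a scale described below, 14 of the 15 were higher with no overlap and none lower. Over all tested genes these shares were 75.7% and 1.04%.

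H2-Ab1 was at 1258, 2157 and 547 normalized reads in the graft and at 71924, 18096, 9812 and 3144 in colon day 8. Every colonic library lay above every graft library, replicate 1 highest and replicate 4 lowest. The log2 fold change was 4.85 ± 0.99 (SE; adjusted p = 0.000219), 3.21 without replicate 1, and 3.21 to 5.37 over the alternatives. H2-Aa, which pairs with it in I-A, went from 1403, 3829 and 859.7 to 58389.8, 13342, 6952 and 4953 (3.93 ± 0.89, adjusted p = 0.00065, without replicate 1 2.30, adjusted p = 0.00492). H2-Eb1, the beta chain of I-E, went from 337, 903 and 211 to 47446, 9860.3, 4204 and 2478 (5.62 ± 1.04, adjusted p = 6.76e-05, without replicate 1 3.75, adjusted p = 0.000132). Cd74, the invariant chain that escorts class II to the endosome, went from 1196, 2308 and 741 to 59255, 10069.7, 4963 and 3439 (4.36 ± 0.97, adjusted p = 0.000518, without replicate 1 2.37, adjusted p = 0.00413). In all 4 genes graft replicate 2 was the highest of the graft. MHCII protein was a criterion of the colonic sort.

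Of 13 class II presentation genes tested, 5 were higher and 1 lower, and without replicate 1, 4 of 12 were higher and 4 lower. With all 4 libraries the shares over all tested genes were 35.8% and 21.3%. Ciita, the master coactivator of class II genes, was at 75.8, 207 and 114 in the graft and at 1121, 182, 175 and 146 in colon day 8, where 3 libraries overlapped the graft. Its log2 fold change was 2.07 ± 0.87 (SE; adjusted p = 0.0454) and 0.57 (adjusted p = 0.513) without replicate 1. The adjusted p was 0.144, 0.052 and 0.116 without graft replicates 1, 2 and 3. H2-DMa, which loads peptide, was at 2571, 3199 and 2662 in the graft and at 5697, 1108, 665 and 451 and was not called. Ctss, cathepsin S, which trims the invariant chain, was at 13283, 19379.6 and 12075 in the graft and at 9615, 3890.1, 3672 and 2864 in colon day 8, with adjusted p = 0.064. Without replicate 1 its log2 fold change was -1.85 (adjusted p = 0.00183). Rfxap, a subunit of the RFX complex, fell from 281, 382 and 341 to 80.5, 165, 157 and 172 (adjusted p = 0.00396). In normalized reads the class II chains and the invariant chain rose, whereas loading and processing genes did not follow as a set. Per 1000 pan-leukocyte reads, 12 of the 13 tested genes were higher with no overlap and none lower. Over all tested genes these shares were 75.7% and 1.04%.

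**Figure D3:**
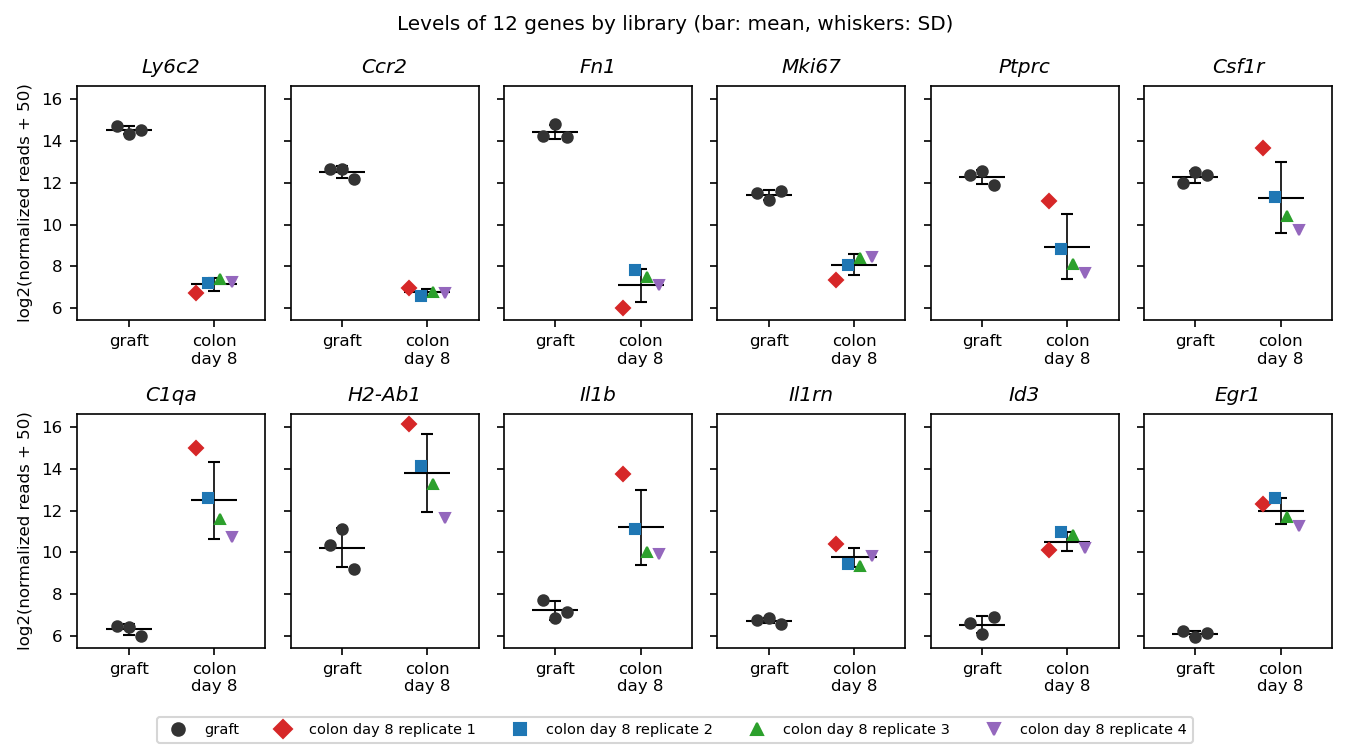
Levels of 12 genes by library on log2(normalized reads + 50), with the group mean as a bar and the SD as whiskers (3 graft and 4 colon day 8 libraries). Ly6c2, Ccr2, Fn1 and Mki67 lie below the graft in all 4 colonic libraries, C1qa, H2-Ab1 and Il1b rise with replicate 1 on top, and Csf1r overlaps.

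Macrophage identity genes gave a mixed picture in normalized reads. Of 24 list genes 22 were tested, and 11 were higher and 2 lower with a median log2 fold change of 1.60. Without replicate 1, 9 were higher and 7 lower with a median of 1.22. Csf1r, the receptor for CSF1 and target of the CD115 sort of the graft, was at 4000.0, 5784 and 5207 in the graft and at 12829, 2529, 1331 and 815 in colon day 8. Only replicate 1 lay above the graft and the other 3 lay below it. Its log2 fold change was 0.36 ± 0.79 (SE; adjusted p = 0.713) with all 4 libraries and -1.45 (adjusted p = 0.0594) without replicate 1, so its sign rested on that library, and with library totals it was -0.20. Cd68, Cx3cr1, Adgre1 (F4/80) and Trem2 were not called with all 4 libraries and were lower without replicate 1. Apoe, the lipid carrier, rose from 5572, 11344 and 4836 to 200123, 36500.1, 14624 and 8962 (3.75 ± 0.94, adjusted p = 0.00164, without replicate 1 1.70, adjusted p = 0.0272), although replicate 4 lay below graft replicate 2. Lyz2, lysozyme M, fell from 64735, 73996 and 52893 to 13225, 2452, 1347 and 688 (adjusted p = 0.00195).

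Cd81, Mrc1, Itgax and Maf rose whichever of the 7 libraries was left out. Cd81, a tetraspanin, went from 30.9, 46.5 and 38.7 to 2529.6, 1449, 1670.2 and 997 (5.81 ± 0.57, adjusted p = 9.21e-09). Mrc1, the mannose receptor, went from 44.9, 60.1 and 17 to 778, 402, 162 and 198 (3.64 ± 0.68, adjusted p = 8.35e-05, without replicate 1 2.86, adjusted p = 0.000253). Itgax went from 5.61, 23.3 and 12.11 to 1798, 425, 232 and 115 (5.95 ± 1.24, adjusted p = 0.000268, without replicate 1 4.34, adjusted p = 0.00112). By the methods the donor cells carry no transgene on the Itgax promoter, although the labels name it for all 7 libraries. Maf went from 67.4, 85.3 and 43.6 to 362, 233, 99.2 and 118 (1.98 ± 0.56, adjusted p = 0.00434). Mertk, an apoptotic cell receptor, was at 0 in the graft and at 80.5, 16.9, 20.9 and 28.1, under the filter on low levels. Vsig4, a complement receptor of other tissue macrophages, was at 0 in all 7 libraries.

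Among IL-1 family and inflammasome genes, 10 of 14 tested were higher and none lower (9 and none without replicate 1). Il1b was at 157, 63.9 and 89.6 normalized reads in the graft and at 13936, 2208, 971 and 909 in colon day 8, without overlap. Its log2 fold change was 6.03 ± 1.07 (SE; adjusted p = 4.16e-05), 3.97 without replicate 1 and 3.97 to 6.41 over the alternatives. Il1rn, which encodes the IL-1 receptor antagonist, rose from 58.9, 63.9 and 46 to 1302, 642, 611 and 851 (4.32 ± 0.71, adjusted p = 1.6e-05). The cytokine and its antagonist were thus both above the graft, with a wider spread between colonic libraries in Il1b. Il18 rose from 78.6, 153 and 77.5 to 476, 810.4, 1041 and 1857 (3.67 ± 0.63, adjusted p = 3.02e-05) and was lowest in replicate 1. Epithelial cells are a known source of IL-18, and the epithelial list was lowest in replicate 1 too. Il1r2, which encodes the decoy receptor, was at 30.9, 25.2 and 7.27 in the graft and at 4677, 591, 229.6 and 116 in colon day 8 (adjusted p = 0.000695). Casp1, the protease that matures IL-1beta, rose from 241, 161 and 140.5 to 463, 530.2, 475 and 961 (2.11 ± 0.39, adjusted p = 7.18e-05). Of the inflammasome parts, the sensor Nlrp3 was at 342, 339 and 337 in the graft and at 469.7, 149, 47 and 37.5 in colon day 8. The adaptor Pycard was at 3568, 3716 and 3826 in the graft and at 2442, 2958, 4108 and 4329 in colon day 8. The pore protein Gsdmd was at 1263, 2062 and 1499 in the graft and at 772, 1334, 1498 and 1413 in colon day 8. None of these 3 was called.

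Inflammatory effectors depended on replicate 1. Of 10 tested genes 7 were higher with all 4 libraries and 4 without it, and none was lower. Tnf was at 166, 145 and 182 in the graft and at 2348, 297, 96.6 and 88.9 in colon day 8, so replicates 3 and 4 lay below all of the graft and replicates 1 and 2 above. The fold change was 2.65 ± 0.94 (SE; adjusted p = 0.019) on the log2 scale, and 0.17 (adjusted p = 0.827) without replicate 1. The adjusted p was 0.0556 without graft replicate 1 and 0.0642 without graft replicate 2. Cxcl2, a neutrophil chemokine, was at 326, 23.3 and 484 in the graft and at 8850.4, 1557, 462 and 549 in colon day 8 (3.92 ± 1.08, adjusted p = 0.00338, without replicate 1 1.85, adjusted p = 0.0527). Ccl4 was at 124, 29.1 and 99.3 in the graft and at 4200.4, 489.6, 115 and 59.7 in colon day 8 (4.45 ± 1.17, adjusted p = 0.00238, without replicate 1 1.60, adjusted p = 0.0802). Cxcl1, another neutrophil chemokine, was at 0 in the graft and at 1053, 233, 109.6 and 53.8, at least 43-fold higher. Il6, Il12a and Il12b stayed under 11 normalized reads in each of the 7 libraries. Nos2, inducible nitric oxide synthase, was at 0 in the graft and in replicate 1 and at 30.4, 65.2 and 72.6 in the other 3.

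Of 9 genes of the IL-10 axis 2 were higher and 3 lower (2 and 4 without replicate 1), against 35.8% and 21.3% of all tested genes. Il10 itself was at 0 in the graft and at 154, 50.7, 5.22 and 8.19 in colon day 8, clearest in replicates 1 and 2. Il10ra, the ligand-binding chain of the receptor, fell from 926, 1418 and 1288 to 476, 165, 115 and 116 (-2.09 ± 0.70, adjusted p = 0.0137, without replicate 1 -2.96, adjusted p = 0.000934). Il10rb was at 516, 612 and 389.9 in the graft and at 335, 459, 496 and 539.5 in colon day 8 and was not called. Tyk2, a kinase of the receptor, fell from 800.0, 953 and 986 to 107, 128, 102 and 142 (adjusted p = 6.49e-08). Socs3, a feedback inhibitor downstream of STAT3, rose from 109, 105 and 53.3 to 866, 713, 564 and 358 (3.20 ± 0.37, adjusted p = 1.33e-07), with no overlap and little difference between replicate 1 and the rest.

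TGF-beta signalling genes were higher in 8 of 18 and lower in none, and without replicate 1 in 7 and 1. Over all tested genes 35.8% were higher and 21.3% lower. Without graft replicate 3, 5 were higher. Smad7, the inhibitory SMAD, rose from 118, 98.8 and 77.5 to 449.6, 689, 668 and 393 (2.83 ± 0.28, adjusted p = 1.13e-08). Skil, a repressor of SMAD transcription, rose from 56.1, 124 and 65.4 to 476, 324, 185 and 195 (2.21 ± 0.40, adjusted p = 5.01e-05). Both are known feedback targets of the pathway. Tgfbr2, the type II receptor, rose from 213, 252 and 145 to 369, 365, 324 and 324 (1.13 ± 0.38, adjusted p = 0.0148), with an adjusted p of 0.0797 without graft replicate 3. The SMADs that carry the signal, Smad2, Smad3 and Smad4, were not called. Tgfb1, the ligand, was at 1272, 1077 and 1061 in the graft and at 1255, 247, 104 and 51.5 in colon day 8, within the graft's range in replicate 1 and far under it in the others.

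Among genes for the uptake of apoptotic cells, 8 of 14 were higher and 3 lower (6 and 3 without replicate 1). The shares over all tested genes were 35.8% and 21.3%. Axl, a receptor of the TAM family, rose from 104, 196 and 124 to 1537, 594, 300.1 and 208 (2.68 ± 0.58, adjusted p = 0.000357, without replicate 1 1.60, adjusted p = 0.00175). Its ligand Gas6 was at 0, 1.94 and 0 in the graft and at 1631, 3046, 2949 and 3766 in colon day 8, a ratio of colon day 8 to graft of 3660.4 (95% Poisson interval 657 to 144576, counting error only). Mfge8, a bridge to phosphatidylserine, rose from 196, 176 and 225 to 725, 523, 409.7 and 325 (1.70 ± 0.49, adjusted p = 0.00497). Stab1, a scavenger receptor, rose from 5.61, 5.81 and 0 to 993, 746, 264 and 201 (7.43 ± 1.08, adjusted p = 3.38e-06, without replicate 1 6.79, adjusted p = 6.66e-06). Scarb1 fell from 996, 1069.5 and 1179 to 369, 155, 180.1 and 136 (-1.999 ± 0.46, adjusted p = 0.000666), and Lrp1 and Elmo1 were lower as well. Receptors such as Axl and Stab1 were highest in replicate 1, while Gas6 was lowest there, as the summed epithelial, goblet cell and fibroblast genes were.

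Myeloid transcription factors went both ways, not far from the shares over all tested genes, 35.8% higher and 21.3% lower. Of 27 tested, 12 were higher and 8 lower, and 11 and 12 without replicate 1. Egr1, an immediate early factor, rose from 25.3, 11.6 and 19.4 to 5126, 6234, 3257 and 2371 (8.20 ± 0.66, adjusted p = 4.81e-10). Id3, an inhibitor of helix-loop-helix factors known from tissue macrophages, rose from 47.7, 17.4 and 67.8 to 1040.0, 1986, 1746 and 1114 (5.38 ± 0.48, adjusted p = 2.17e-09). Bhlhe40 rose from 56.1, 44.6 and 12.11 to 1019.9, 1006, 637 and 647 (4.84 ± 0.55, adjusted p = 8.78e-08). In these 3 genes replicate 1 lay within or near the range of the other colonic libraries. The lipid sensor Nr1h3 (LXRalpha) rose from 2.81, 17.4 and 14.5 to 577, 260.0, 169.6 and 115 (4.87 ± 0.74, adjusted p = 5.71e-06, without replicate 1 4.07, adjusted p = 7.86e-06). The lipid sensor Pparg rose from 25.3, 44.6 and 19.4 to 255, 395, 579 and 682 (4.31 ± 0.54, adjusted p = 3.39e-07). Nr1h3 was highest in replicate 1 and Pparg lowest, and epithelial cells express Pparg as well. Klf4, which both monocytes and gut epithelium express, was at 5695, 4563 and 4083 in the graft and at 2328, 10171, 11072 and 14947 in colon day 8 (1.31 ± 0.44, adjusted p = 0.0146), below the graft in replicate 1. Its adjusted p was 0.064, 0.0516 and 0.0575 without colon day 8 replicate 4, graft replicate 2 and graft replicate 3.

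On the falling side, Irf5, an interferon regulatory factor of monocytes, went from 3265, 3745 and 3756 to 282, 149, 70.5 and 70.2 (-4.32 ± 0.73, adjusted p = 2.51e-05, without replicate 1 -5.00, adjusted p = 7.01e-06). Irf8, needed for monocyte development, went from 4865, 4991 and 4672 to 1785, 895, 825 and 818 (-1.74 ± 0.43, adjusted p = 0.00151). Cebpb fell from 5777, 5671 and 7226 to 2208, 689, 384 and 284 (-2.32 ± 0.71, adjusted p = 0.00749, without replicate 1 -3.55, adjusted p = 0.000102). Cebpe, a factor of granule development, was at 230.2, 180.2 and 211 in the graft and had 1 read in colon day 8. These factors lay below the graft in all 4 colonic libraries. Spi1, which encodes PU.1, was at 2700.3, 2699 and 3332 in the graft and at 2275, 375, 206 and 91.3 in colon day 8. The log2 fold change was -1.45 ± 0.79 (SE; adjusted p = 0.121), and -3.50 (adjusted p = 0.000105) without replicate 1. It also passed with library totals (-2.02, adjusted p = 0.0265) and limma voom (-3.10, adjusted p = 0.000453).

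Toll-like receptor genes were higher in 4 of 13 and lower in 5 (3 and 7 without replicate 1), against 35.8% and 21.3% of all tested genes. Tlr1 rose from 132, 229 and 114 to 362, 392, 444 and 519.7 (1.79 ± 0.39, adjusted p = 0.00046) while its partner Tlr2 fell from 876, 727 and 736 to 40.3, 81, 88.7 and 84.3 (-3.03 ± 0.40, adjusted p = 9.1e-07). In normalized reads the 2 receptors of this heterodimer thus went opposite ways, in each of the 4 libraries. Per 1000 pan-leukocyte reads none of the 13 genes was lower with no overlap, so the fall of Tlr2 depended on the scale. Both receptors were lowest in replicate 1, as the summed epithelial genes were. Myd88, the shared adaptor, fell from 1600.0, 1679.9 and 1129 to 302, 284, 321 and 254 (-1.98 ± 0.32, adjusted p = 1.35e-05). Cd14, the lipopolysaccharide coreceptor, rose from 488, 422 and 351 to 1979, 800.3, 621 and 496 (1.67 ± 0.52, adjusted p = 0.00896, without replicate 1 0.85, adjusted p = 0.0917). Irak3, a brake on the pathway, was at 337, 347 and 262 in the graft and at 6.71, 23.6, 20.9 and 16.4 in colon day 8. Tlr13, a sensor of bacterial RNA, was at 1218, 1290.4 and 1429 in the graft and at 416, 87.8, 41.8 and 46.8 in colon day 8. Both were lower, and the other calls were Tlr3 and Tlr4, which were higher, and Tlr8, which was lower.

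Of 10 chemokine and homing receptors tested, 1 was higher and 4 lower (1 and 6 without replicate 1). Over all tested genes the shares were 35.8% and 21.3%. Besides Ccr2, the integrin genes Itga4 and Itgb7 fell, whose products form the alpha4beta7 receptor for gut vessels. Itgb7 went from 4138, 4702 and 5219 to 26.8, 6.75, 10.4 and 11.7 (-8.22 ± 0.95, adjusted p = 1.11e-07). S1pr1, a receptor for lymphocyte egress that endothelium also expresses, was the 1 higher gene, at 2.81, 3.88 and 0 in the graft and at 40.3, 54, 57.4 and 45.6 in colon day 8. Cxcr4, a receptor for marrow retention, was at 842, 599 and 610.3 in the graft and at 1168, 108, 36.5 and 81.9 in colon day 8 and was not called.

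Genes of other intestinal cells made up the largest rises. All 17 intestinal epithelium genes, 5 colonocyte, 9 goblet cell, 6 tested enteroendocrine, 6 tested fibroblast, 6 endothelium and 4 smooth muscle genes were higher. Over all genes the share was 35.8%. In the same order 7, 4, 4, 6, 6, 5 and 1 of these had no read in the graft. Genes under 50 normalized reads in the graft passed the filter on low levels only through gut libraries. This held for every colonocyte, goblet cell, enteroendocrine, fibroblast and endothelium gene, as each whole list summed to at most 19.6 in any graft library. The epithelial list summed to 42.6 in graft replicate 2, so none of its genes could pass through the graft alone. The filter thus fixed or favoured a rise in these lists, which is no test. For smooth muscle genes with graft reads, list sums of 61.8 to 92 cannot decide this. With limma voom no smooth muscle gene passed, and in a fit of the 2 groups alone 2 endothelium genes did. Ckmt1, a mitochondrial creatine kinase, was at 0 in the graft and at 9293, 23830.2, 20718 and 16004 in colon day 8, at least 2074-fold higher. Oit1 was at 0 and at 8314, 18515, 19836 and 18382, at least 1931-fold higher, and Tspan1, an epithelial tetraspanin, at 0 and at 6582, 15395, 20772 and 16498, at least 1759-fold higher. Spink4, of goblet cells, Sprr2a1, Sprr2a2, Phgr1, Cldn3, Dmbt1 and Hao2 completed the 10. Sprr2a1 and Sprr2a2 are listed at the same place with nearly equal counts and may share reads. In 9 of these 10 genes replicate 1 was the lowest colonic library, and in Hao2 replicate 4 was.

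Epcam, the epithelial adhesion molecule, was at 0, 0 and 2.42 in the graft and at 2603, 6561, 7724 and 6623 in colon day 8. Krt8, a simple epithelial keratin, was at 5.61, 7.75 and 4.84 in the graft and at 11970.5, 32046, 29556 and 28683 in colon day 8, and Muc2, the gel-forming mucin of goblet cells, at 8.42, 1.94 and 0 in the graft and at 1141, 11680.4, 11795 and 5855 in colon day 8. The enteroendocrine genes Chga, Chgb and Pyy and the fibroblast gene Col1a1 had no read in replicate 1. Of 14 gut patterning factors tested, 13 were higher, and all 14 were lower in replicate 1 than in the median of the other 3. Of the 14, 9 had no read in the graft. The whole list summed to 47.7 normalized reads in graft replicate 1, under the level of 50 that the filter asks for. None of the 14 could therefore pass it through the graft libraries alone. The filter thus fixed or favoured a rise in this list, which is no test. Cdx1, a homeobox factor of intestinal epithelium, was at 0 in the graft and at 886, 2823, 3507 and 2795 in colon day 8. Gata6 was at 0 in the graft and at 161, 371, 313 and 331.

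Other blood cells gave less. In the T cell list 1 of 5 tested genes, Lck, was higher and none without graft replicate 2, and Cd3e, Cd3d and Cd3g had at most 6.75 normalized reads. Jchain, of plasma cells, rose from 5.61, 5.81 and 2.42 to 1986, 1597, 1185 and 5132 (adjusted p = 4.79e-05). B and plasma genes were higher in 2 of 4 and lower in 1. Without colon day 8 replicate 1 they were higher in 1 and lower in 1, and without replicate 4 in 1 and 0. The mast cell proteases Cpa3, Mcpt1 and Mcpt2 were at 0 or under 4, and Kit, the tested gene of that list, was higher. Neutrophil genes were higher in 1 of 4 and lower in 2. The lower ones were 3 without colon day 8 replicate 1 and 1 without graft replicate 3. Ly6g was at 11.2, 19.4 and 17 in the graft and at 6.71, 409, 402 and 581 in colon day 8, whereas Csf3r and Retnlg fell. Of the dendritic cell list Flt3 fell, which passed the filter on low levels only with all 3 graft libraries, and Xcr1 and Clec9a were under 20 throughout. The 1 eosinophil gene tested, Prg2, was not called.

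Replicate 1 was set beside the other 3 libraries with no test. The 8 genes furthest above their median were Cfd, Hp, Pgf, Ccl4, Ccl3, Car3, Mmp13 and Defa2. Cfd, which encodes the serine protease adipsin of fat cells, was at 8038, 412, 2.61 and 2.34 in replicates 1 to 4, and Car3, another gene known from fat and muscle, at 1489.6, 37.1, 10.4 and 1.17. Ccl3, a chemokine for monocytes and T cells, was at 5381, 611, 162 and 146, and Mmp13, a collagenase, at 2838, 219, 99.2 and 46.8. Defa2, a Paneth cell defensin that has near-identical copies in the genome and may share reads with them, was at 933, 0, 2.61 and 266. In the first 7 of the 8 genes replicate 2 was second, and in Defa2 replicate 4 was.

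The 8 furthest below were Pyy, Pls1, Nov, Agr2, Fxyd4, Spink4, Spdef and Insl5. Pyy, a hormone of colonic L cells, was at 0, 1165, 1234 and 631, and Insl5, another, at 0, 503, 556 and 117. Agr2, needed for mucin folding in goblet cells, was at 953, 12251, 13687 and 8619.9, and Spdef, a goblet cell factor, at 0, 537, 509 and 267. Fxyd4, an ion pump regulator of the colon, was at 0, 861, 389 and 562. Over the lists, replicate 1 was above the median of the other 3 in 21 of 22 tested macrophage identity genes and 19 of 20 pan-leukocyte genes. It was below in 17 of 17 epithelial, 9 of 9 goblet, 6 of 6 fibroblast and 23 of 24 cell cycle genes. Over all tested genes it was above in 3682 and below in 8093.

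**Figure D4:**
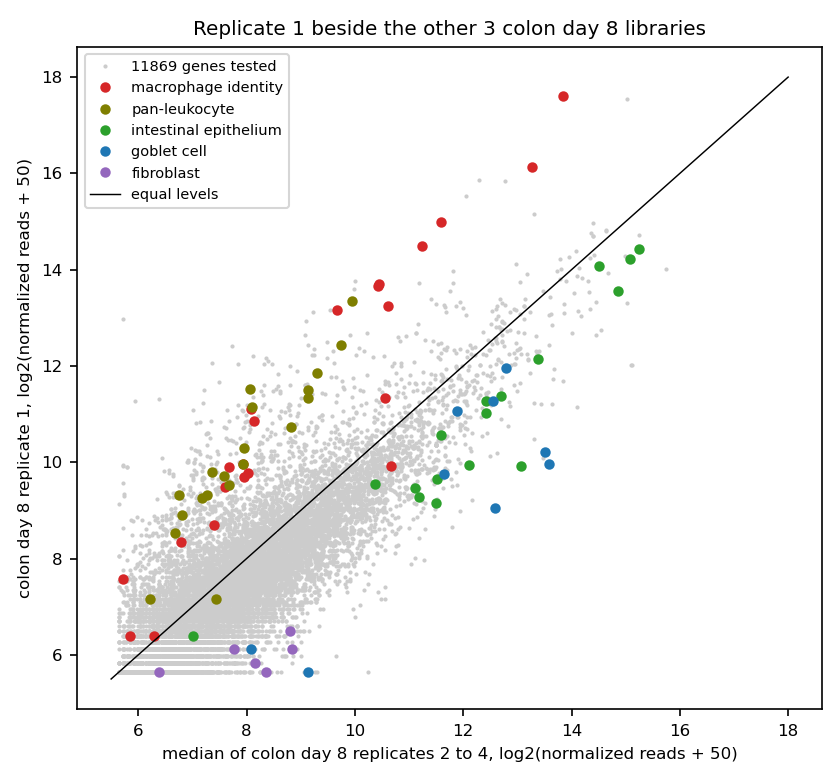
Level of each of 11869 genes in colon day 8 replicate 1 (y) against the median of replicates 2 to 4 (x), both as log2(normalized reads + 50), with 5 gene lists in colour and a line at equal levels. Macrophage identity genes lie above the line in 21 of 22 cases and epithelial genes below it in 17 of 17.

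A second scale used reads per 1000 reads on the 20 pan-leukocyte genes of the same library, a ratio that sets a gene against leukocyte RNA rather than all RNA. It is a description, since 75.7% of tested genes were higher in colon day 8 with no overlap on it and 1.04% were lower. C1qa was at 0.264, 0.227 and 0.0912 in the graft and at 842, 587, 551 and 478 in replicates 1 to 4. H2-Ab1 was at 8.46, 13.3 and 3.44 in the graft and 1849.7, 1710.0, 1785 and 896 in colon day 8, and Il1b at 1.06, 0.394 and 0.562 in the graft and 358, 209, 177 and 259 in colon day 8. On this scale the 4 colonic libraries lay close together in the 3 markers. Csf1r, which overlapped in normalized reads, was at 26.9, 35.6 and 32.7 in the graft and 329.9, 239, 242 and 232 in colon day 8, Fcgr1 at 4.57, 5.34 and 4.36 in the graft and 23.3, 21.7, 28 and 14.3 in colon day 8, and Itgam at 19.4, 29.3 and 25 in the graft and 17.1 to 39.7 in colon day 8. Csf1r and Fcgr1 were thus higher in every colonic library, and Itgam still overlapped.

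Among the 22 tested macrophage identity genes 20 were higher per 1000 with no overlap and none lower. The highest of the 4 colonic libraries over the lowest had a median of 11.7 in normalized reads and of 1.97 per 1000. That range was narrower per 1000 in 19 of the 22 genes, against 9.31% of the 10869 tested genes with a read in all 4 libraries. It was narrower in 10 of 13 class II genes, 7 of 15 complement genes and 5 of 14 IL-1 genes, and in none of the 17 epithelial genes. Of the pan-leukocyte genes themselves 7 were higher and 5 lower. Classical monocyte genes were lower in 9 of 11 and granule genes in 11 of 13. Ly6c2 was at 179.8, 128 and 147 in the graft and 1.38, 9.25, 21.4 and 29.7 in colon day 8, Ccr2 at 44, 40.2 and 28.9 in the graft and 1.9, 4.15, 10.9 and 16 in colon day 8, and Itgb7 at 27.8, 29 and 32.8 in the graft and 0.69, 0.638, 1.9 and 3.34 in colon day 8. Cell cycle genes, lower in 24 of 24 in the fit, were lower in none. Their sum per 1000 was 158 to 219.9 in the graft and 37.1, 375, 968 and 963 in colon day 8, so replicate 1 lay below the graft and the others above. Mki67 was at 19.12, 13.8 and 19.4 in the graft and 2.93, 20.4, 52.7 and 84.4 in colon day 8. Irf5 was lower on both scales, at 22, 23.08 and 23.6 in the graft and 7.25, 14, 12.8 and 20 in colon day 8. Of the 27 tested myeloid transcription factors, 2 were lower per 1000 with no overlap and 23 higher, against 1.04% and 75.7% of all tested genes. No gene was lower in the complement, IL-10 axis, Toll-like receptor or apoptotic cell uptake lists. The falls called in those lists thus overlapped or reversed on this scale.

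**Figure D5:**
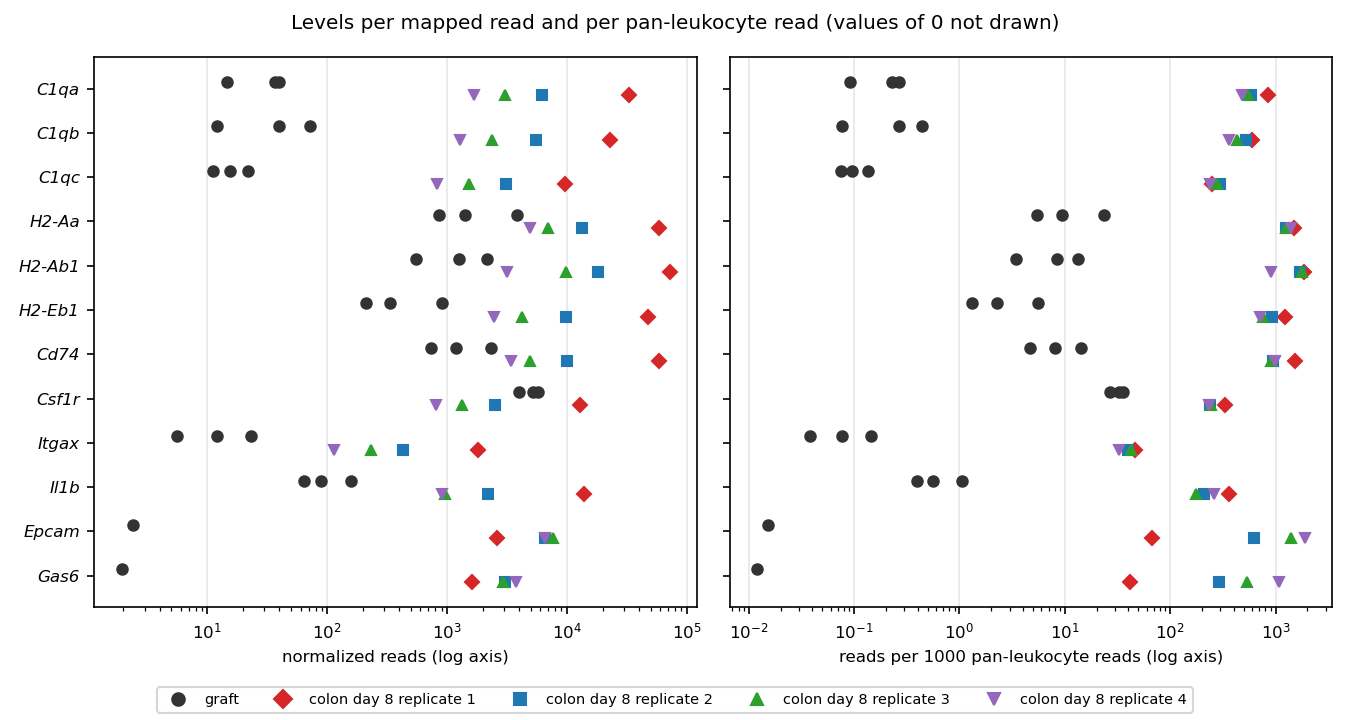
Levels of 12 genes in the graft (black) and the 4 colon day 8 libraries (coloured), in normalized reads on the left and per 1000 pan-leukocyte reads on the right, both on log axes with values of 0 not drawn. C1q, class II and Csf1r draw together on the right, where Csf1r lies at 232 or more in colon day 8 and at 35.6 or less in the graft, while Epcam and Gas6 spread out.

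Colon day 8 was set between its neighbours of the same segment. No gene (0.0%) passed between colon day 4 and day 8, and none between day 8 and day 12, with edgeR, with or without replicate 1. Between days 4 and 8, 686 genes had an unadjusted p under 0.05, and DESeq2 called 2 genes and limma voom 0. Between days 8 and 12 the unadjusted number was 606, and DESeq2 and limma voom called 0. C1qa was at 1262 to 3323 on day 4 (n = 3) and 2112 to 7735 on day 12 (n = 4), H2-Ab1 at 2232 to 7803 and 3348 to 16189, and Il1b at 851 to 1405 and 505 to 3989. Here too replicate 1 stood apart, above both ranges in all 3 genes. Replicates 2 to 4 lay inside the joint range of these days for C1qa. The pan-leukocyte sum was 3275 to 7228 on day 4 and 3652 to 11932 on day 12, and the epithelial sum 171140 to 197322 and 124794 to 170893.

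The change from the graft was also compared between segments through ileum day 8 (n = 4), in which the shared graft cancels. Of 11869 genes 1636 (13.8%) were higher in colon and 1386 (11.7%) lower. Without colon day 8 replicate 1 the shares were 16.7% and 18.3% of 11842, and with library totals 2140 were higher and 946 lower. C1qa was at 4935 to 42182 in ileum day 8, and its difference of colon minus ileum was -0.85 ± 0.76 (SE; adjusted p = 0.441) on the log2 scale, and -2.77 (adjusted p = 0.00377) without replicate 1. H2-Ab1 was at 7433 to 39772, with a difference of 0.10 ± 0.74 (SE; adjusted p = 0.934), and Il1b at 1292 to 5734, with a difference of 0.63 ± 0.75 (SE; adjusted p = 0.575). Without replicate 1 these were -1.53 (adjusted p = 0.0815) for H2-Ab1 and -1.43 (adjusted p = 0.0691) for Il1b, so the sign of both rested on that library. Ly6c2 was lower in colon, with 244 to 1173 in ileum and a difference of -3.01 ± 0.80 (SE; adjusted p = 0.00814). S100a8 was lower too, with 30.12 to 182 in ileum and a difference of -3.85 ± 0.97 (SE; adjusted p = 0.00584). Il18, Pparg and Klf4 were higher in colon, with differences of 2.53 ± 0.54 (SE; adjusted p = 0.00188), 2.42 ± 0.44 (SE; adjusted p = 0.000651) and 2.45 ± 0.42 (SE; adjusted p = 0.000462). The summed epithelial level was 29912 to 59219 in ileum day 8, under every colonic library, and that of pan-leukocyte genes 8653 to 41788. The part of these levels in the differences between segments was not tested.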

How the data were processed

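RNA of the graft and of sorted colonic and ileal progeny was captured by its poly(A) tail, amplified by a derivation of MARS-seq and sequenced on a NextSeq 500. The authors aligned reads to mm9 with HISAT 0.1.6, kept uniquely mapping reads and deposited raw counts on exons per gene from HOMER, strand-specific and with isoforms condensed, 1 column per library. Collapsing by molecular identifiers and the HOMER version are not given in the sources used here. A second deposited table, of CX3CR1-DTR recipients, was not used here.

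Counts were divided by the mapped reads of each header and multiplied by 10000000. A gene was tested if 3 or more of the 26 CD11c-DTR libraries held 50 normalized reads or more, which left 11869 of 24411. All 7 groups entered 1 fit (edgeR 4.0.16, TMM scaling, quasi-likelihood test, R 4.3.3), with Benjamini-Hochberg adjusted p under 0.05. SEs are the log2 fold change over the square root of F. On counts simulated for the 26 libraries over 11869 genes, the fit recovered 195 of 200 changed genes with 2 false calls. The simulation gave all groups equal means apart from those 200 genes and used a fixed dispersion. It held neither the wide change between these groups nor a library that stands apart. It therefore checks that the fit finds planted changes and gives no error rate for the real counts. Alternatives were DESeq2 1.42.0, limma 3.58.1 (voom), RLE and library-total scaling, no filter or a filter of 200, the compared groups alone, each library left out, an experiment block, a 2-fold threshold, and a pseudocount of 1 in place of 50. They make 15 fits per gene beside the main one. The experiments of the block were inferred from the label dates, and an ileum day 8 library dated 8.1.14 was placed with those of 8.1.15.

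The 29 lists, 346 genes in all, and the members were chosen with earlier results of these data known. Named were list genes, the 10 largest rises and the 10 largest falls (called with and without colon day 8 replicate 1, without overlap, mean of at least 200 in the higher group), and the 8 genes furthest above and the 8 furthest below for replicate 1. Floors are 3 counts per library, and floors and Poisson intervals cover counting error only, since reads may not be independent molecules. The sequences came from the mm9 assembly, upstream of the outermost start given by the deposited table or by protein-coding transcripts of GENCODE vM1. The libraries held 889451 to 5228664 reads on genes, and the shallowest has the widest floor.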

Additional observations from a re-analysis of the deposited data

Results flagged for a closer look

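In colon day 8, the highest or lowest of the 4 libraries stood apart by Dixon's criterion, in which its gap to the nearest library divided by the whole range is above the 95% critical value for 4 values, in 27 of 93 genes and 9 of 29 list sums. Chance alone gives about 1 group in 20, but 16 of these genes were named for the distance of replicate 1 from the others, so their values are no test. Without them it was 20 of 77 genes, 17 in replicate 1. These genes share the same 4 libraries and were chosen with earlier results known, so that number is no test either. In 24 of the 27 genes the library was replicate 1. Among the macrophage and class II genes the values were 0.854 for C1qa, 0.843 for H2-Aa, 0.8358 for H2-Eb1, 0.8812 for Cd74, 0.963 for Ciita, 0.8559 for Apoe and 0.8573 for Csf1r, each with replicate 1 highest. Among cytokines and chemokines they were 0.9003 for Il1b, 0.9079 for Tnf, 0.8695 for Cxcl2, 0.8962 for Ccl4 and 0.9112 for Ccl3. Ptprc had 0.8785, Il10ra 0.8599, Irf8 0.9206 and Spi1 0.8701, also with replicate 1 highest. Hp had 0.9753, Cfd 0.949, Pgf 0.9353, Car3 0.9758 and Mmp13 0.9381. Replicate 1 was lowest for Tlr2 (0.8415), Oit1 (0.8739) and Cldn3 (0.8445). In the other 3 genes replicate 4 was highest, at 0.8651 for Casp1 and at 1.0 for Chil3 and Ctsg, each of which had reads there alone.

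The sums with replicate 1 apart and highest were those of macrophage identity (0.8321), MHC class II presentation (0.8342), IL-1 family and inflammasome (0.892), inflammatory effectors (0.8845), Toll-like receptor recognition (0.8467) and chemokine and homing receptors (0.8695). It was apart and lowest for intestinal epithelium (0.8311), gut patterning transcription factors (0.8309) and T cell genes (0.8671).

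For 12 of 61 genes the change from the graft differed between colon and ileum on day 8 (edgeR, adjusted p under 0.05, graft shared), against 25.5% of all 11869 genes. On the log2 scale, colon minus ileum was 1.51 for Il1rn, 2.53 for Il18, 2.42 for Pparg, 2.45 for Klf4 and 1.29 for Tlr1. It was -3.01 for Ly6c2, -4.49 for Chil3, -3.85 for S100a8, -1.17 for Top2a, -1.42 for Mfge8, -0.93 for Myd88 and -3.66 for Itgb7. Without colon day 8 replicate 1 the difference of Il1rn had an adjusted p of 0.135, and the other 11 remained below 0.05.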

How the results depend on the processing

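Between the graft and colon day 8, the numbers of genes higher and lower stayed within 1.5 times the main counts under every alternative, at 4211 and 2578 with RLE scaling, 3463 and 3464 with library totals, 5045 and 2520 with no filter, 2893 and 1903 with a filter of 200 normalized reads, 4434 and 2738 with DESeq2, 4029 and 2978 with limma voom, 3439 and 2124 with only the 2 groups fitted, and 3778 and 1914 with a 2-fold threshold. Leaving out 1 library in turn gave 3769 to 4168 higher and 2090 to 2834 lower. Between colon days 4 and 8 DESeq2 called 2 genes where edgeR called 0, and colon against ileum day 8 went from 3022 to 1786 with only these groups fitted. Leaving out 1 library there gave 2019 (without colon day 8 replicate 4) to 4144 (without replicate 1). Over 61 genes and 911 values, 873 kept direction and side of the threshold, 30 lost the call, 5 gained one and 3 changed sign. Of 58 called genes, 48 passed in every alternative that tested them and none changed sign; Prtn3, one of the 48, fell under the filter when any 1 graft library was left out. Csf1r, never called, changed sign to -0.20 with library totals and -0.69 with limma voom, and ranged from -1.45 to 0.72 leaving out 1 library; the cause was not tested. Apart from single libraries, calls were lost for Ciita (only the 2 groups, library totals, limma voom), Tnf and Ptprc (only the 2 groups), Tnf and Ccl4 (limma voom), Hp (only the 2 groups), and Tgfbr2 and Klf4 (library totals). Calls were gained for Spi1 (library totals, limma voom) and Fcgr1 (limma voom, -2.07, adjusted p = 0.00941). List counts stayed within 1.5 times in 874 of 928 values. Macrophage identity genes lower went from 2 to 5 with library totals and to 7 with limma voom, and class II genes lower from 1 to 4 with both. Of the 16 values of replicate 1, 11 moved with a pseudocount of 1 and none changed sign. Libraries placed in the same experiment by their label dates deviated together at correlations of -0.037 to 0.008 across genes. With so few libraries, and replicate 1 apart, these values cannot show whether the libraries were paired. The replicate block gave 4185 higher and 2517 lower and 2635 between segments, with the calls of Ciita (adjusted p = 0.0619) and Tnf (adjusted p = 0.0661) lost. Depth limits low genes in replicate 1, where 3 counts equal 20.1 normalized reads.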
